A study of Mus musculus with 83 samples.

Results

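Small RNA was compared between mouse embryonic stem cells (ESCs) that had lost *Dnmt1*, the gene of the methyltransferase that copies DNA methylation onto newly made strands, and control ESCs on day 3 of a time course of the deletion. The comparison rests on 6 of the 83 libraries of the series, chosen by their titles: 3 Dnmt1 KO and 3 control libraries of day 3, without the libraries of the same names that carry an R1 suffix. The labels give the cells as ESC of background strain E14, and the genotypes as Dnmt1 KO and Wildtype. By the methods of the study, which name another strain (C57BL/6) for the line, a conflict the sources do not settle, the cells carried *Dnmt1* alleles flanked by loxP sites, Cre recombinase was switched on with tamoxifen, and cells grew in serum with LIF. Whether the control cells also received tamoxifen is not stated in these methods, so the treatment cannot be told apart from the loss of *Dnmt1*. Cultures with and without feeder cells are both described, and which of them gave these libraries is not stated. The design text calls the replicates biological. Libraries of days 1 and 6 (3 per genotype and day) serve below as neighbours in time.

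miRNAs are cut from hairpins in longer transcripts, first by the Microprocessor in the nucleus and then by Dicer, and the strand that is loaded into an Argonaute protein finds its targets mainly through its seed, bases 2 to 8 counted from the 5′ end. Many miRNA genes lie in clusters that are transcribed together. ESCs are known for the miR-290 and miR-302 clusters. The clusters between *Dlk1* and *Dio3* and inside *Sfmbt2* are known to depend on parental imprints, and an X-linked cluster between *Slitrk2* and *Fmr1* is known for its expression in testis. A miRNA feature of the deposited table is the hairpin gene, so both arms of a hairpin were counted together.

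Mature sequences of features with the main differences are given first. The counts join both arms of a hairpin, so they do not show which arm or seed changed. The sequences are the RefSeq mature sequences (table of build GRCm38.p6) that were found within the NCBIM37 sequence of each feature. Of the 80 miRNA features called below, 74 held at least 1. Capitals mark the seed. The first group holds both arms of the 4 most abundant miRNAs of the X-linked cluster, which were the most strongly raised features on day 3, and the 3p arm of Mir465, which 5 features of that cluster share. The 9 tested members of the cluster held 18 mature sequences with 18 different seeds, and no other tested miRNA feature with a RefSeq sequence held one of these seeds.
miR-871-5p: uAUUCAGAuuagugccagucaug
miR-871-3p: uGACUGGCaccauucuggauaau
miR-470-5p: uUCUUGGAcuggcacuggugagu
miR-470-3p: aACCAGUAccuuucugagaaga
miR-881-5p: cAGAGAGAuaacagucacaucu
miR-881-3p: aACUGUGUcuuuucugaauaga
miR-878-5p: uAUCUAGUuggaugucaagaca
miR-878-3p: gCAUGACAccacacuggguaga
miR-465a-3p: gAUCAGGGccuuucuaaguaga

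The second group shows those lower features that shared 1 of 2 seeds: AUUGCAC in miR-92a, miR-363 and miR-367, and AAAGUGC in miR-20b and miR-106a. The other lower miRNA features with a RefSeq sequence, such as Mir302b and Mir130b, held neither seed.
miR-92a-3p: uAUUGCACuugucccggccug
miR-363-3p: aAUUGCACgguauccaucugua
miR-367-3p: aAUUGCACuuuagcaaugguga
miR-20b-5p: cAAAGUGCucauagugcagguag
miR-106a-5p: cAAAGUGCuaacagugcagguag

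The third group shows families with more than 1 member among the higher features: the miR-181 family with seed ACAUUCA, the miR-34b and miR-34c hairpins with seed AUCACUA in their 3p arms, and 4 arms of the Dlk1-Dio3 cluster that share seeds in pairs. The 5p seed of Mir34a and Mir34b, GGCAGUG, is not shown. Mir449a (−0.12) and Mir449c (−0.45) share that seed and were not called.
miR-181a-5p: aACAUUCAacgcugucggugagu
miR-181c-5p: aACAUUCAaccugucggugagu
miR-181d-5p: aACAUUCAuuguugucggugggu
miR-34b-3p: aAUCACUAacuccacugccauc
miR-34c-3p: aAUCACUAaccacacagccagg
miR-379-3p: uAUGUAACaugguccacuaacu
miR-411-3p: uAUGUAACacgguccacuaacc
miR-410-5p: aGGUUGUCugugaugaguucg
miR-494-5p: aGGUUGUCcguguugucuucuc

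The 6 libraries held 1313805, 5002001 and 3692702 reads (Dnmt1 KO replicates 1, 2 and 3) and 2789032, 2873693 and 3570554 reads (control). Values are RPM, the reads of a feature scaled to the total of its library, and fold changes are differences of log2(RPM + 1) between Dnmt1 KO and control, given with their standard error. Dnmt1 KO replicate 1, the shallowest, stood apart. Over miRNA features its counts differed from those of Dnmt1 KO replicates 2 and 3 with a chi-square per degree of freedom of 142 and 151.8, against 10.8 between these other replicates and 22.6 to 32.0 between controls. It was the highest of the Dnmt1 KO libraries in 85 of the 116 features called higher. Results without this library are therefore given where they differ. The targeted gene was no check of the deletion, since small RNA reads over a gene do not measure its mRNA: the *Dnmt1* feature held 54.8, 32.4 and 36 RPM in Dnmt1 KO and 44.8, 45.6 and 36.7 RPM in control (difference −1.3 RPM, two-sided exact permutation p = 0.9, where 0.1 is the smallest p for 3 against 3). The miR-290 cluster, which defines ESCs, was present in all 6 libraries, and its 7 miRNAs summed to 129152 to 134859 RPM in Dnmt1 KO and 118457 to 125419 RPM in control. The neural and muscle miRNA features of the table (1 and 3) held no read in any of the 6 libraries. The 6 tested miRNAs listed for fibroblasts had reads in both genotypes, most of them from Mir21 and Mir143 (below).

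Of 2582 features tested, 161 (6.24%) passed an adjusted p of 0.05 (limma over all 36 libraries of the time course, Benjamini-Hochberg over all features tested). Of these, 116 (4.49%) were higher and 45 (1.74%) lower in Dnmt1 KO. miRNA features held 80 of the called features: 67 of the 291 tested were higher (23.0%) and 13 were lower (4.47%). The median log2 fold change was −0.02 over all features and 0.24 over miRNA features. Most changes were small, and 33 called features exceeded 1 on the log2 scale (25 higher, 8 lower). In 159 of the 161 called features the libraries of the genotypes did not overlap; among all tested features, all Dnmt1 KO libraries lay above all controls in 12.9% and below in 13.3%. Without Dnmt1 KO replicate 1 the count of called features was 96, without control replicate 1 it was 106 and without control replicate 2 it was 104. In all 6 fits that each left out 1 library of day 3, 68 of the 161 were called, 40 of them miRNA features, and none changed sign.

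**Figure D1:**
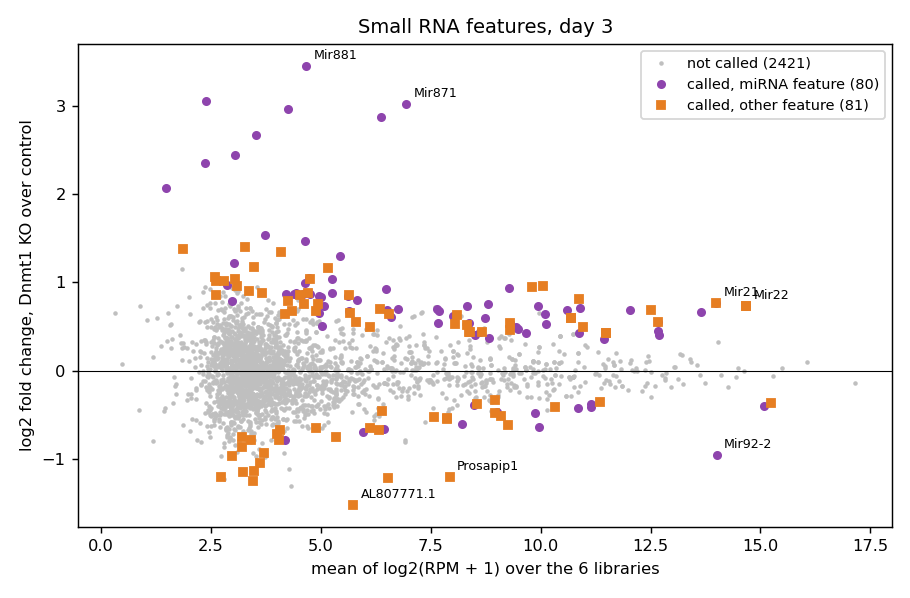
Log2 fold change (Dnmt1 KO over control, day 3) against the mean of log2(RPM + 1) over the 6 libraries for the 2582 tested features. Grey points were not called, purple points are the 80 called miRNA features and orange squares the 81 other called features. The group at the top left is the X-linked cluster, at log2 fold changes of 2.06 to 3.45, whereas the abundant Mir21, Mir22 and Mir92-2 changed by less than 1.

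The largest changes were in the X-linked cluster between *Slitrk2* and *Fmr1*. All 9 of its tested miRNAs were higher in Dnmt1 KO, by 2.06 to 3.45 on the log2 scale (median 2.87), with no overlap between genotypes. Summed over all 20 features of the cluster, those under the filter included, the level was 752, 843 and 811 RPM in Dnmt1 KO (802 ± 46.4, SD, n = 3). In control it was 84.6, 102 and 104 RPM (96.6 ± 10.4, n = 3). Dnmt1 KO replicate 1 was the lowest of the 3 here, unlike in most other groups, and the count was 9 of 9 without it as well. The table holds 20 features of this cluster: 5 had no read on day 3 and 6 with reads (Mir743, Mir742, Mir883a, Mir883b, Mir880 and Mir201) stayed under the filter of 10 RPM in 3 libraries. In the control libraries of the time course alone, only Mir881, Mir871 and Mir470 of the 9 would have passed this filter, so the count over those tested is a description of features that entered largely through Dnmt1 KO libraries.

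Mir871 (chromosome X, 64063603 to 64063679, NCBIM37, as for all coordinates here) was the most abundant of them. It held 288, 377 and 380 RPM in Dnmt1 KO and 39.8, 45.9 and 42.0 RPM in control. The rise was 8.18-fold in mean RPM, and 3.01 ± 0.23 on the log2 scale (adjusted p = 2.33e-12). Mir470 (chromosome X, 64067126 to 64067200) followed with 178, 254 and 234 RPM against 22.6, 33.1 and 34.7 RPM (2.87 ± 0.24, adjusted p = 2.53e-11). For both, the lowest Dnmt1 KO library lay far above the highest control.

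Mir881 (chromosome X, 64055119 to 64055196) had the largest log2 fold change of all tested features, 3.45 ± 0.28 (adjusted p = 6.51e-12). Its levels were 125, 73.0 and 62.3 RPM in Dnmt1 KO and 7.17, 8.0 and 5.32 RPM in control. Mir878, its neighbour (chromosome X, 64054683 to 64054760), held 65.5, 45.6 and 46.6 RPM against 3.94, 4.87 and 10.1 RPM (2.96 ± 0.32, adjusted p = 1.34e-08). For both, Dnmt1 KO replicate 1 was the highest library, and replicates 2 and 3 were close to each other.

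The other 5 members were rarer. Mir463 held 20.6, 37.8 and 28.7 RPM against 3.59, 3.13 and 4.2 RPM (2.67 ± 0.28, adjusted p = 6.8e-09). Mir743b held 19, 16.8 and 19.2 RPM against 2.87, 2.09 and 2.80 RPM (2.44 ± 0.38, adjusted p = 2.27e-05). These rises were of a size with those of the abundant members. Mir741 held 18.3, 7.0 and 9.21 RPM against 1.08, 2.09 and 0.84 RPM (2.35 ± 0.45, adjusted p = 0.000514). Mir465 held 17.5, 14.2 and 11.6 RPM against 1.79, 0.696 and 0.28 RPM (3.05 ± 0.34, adjusted p = 2.33e-08), but its 3p arm has the same sequence as that of 4 more features, among which the counting could split reads. In the R1-suffixed libraries it did not pass (2.45 ± 0.84, adjusted p = 0.133), and 7 of the 8 members tested there were called. Mir471 was listed with at most 3 reads in each control library, and its 4.57, 5.40 and 4.33 RPM in Dnmt1 KO were at least 4.83-fold higher than 3 reads in the control libraries allow (adjusted p = 0.00145).

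**Figure D2:**
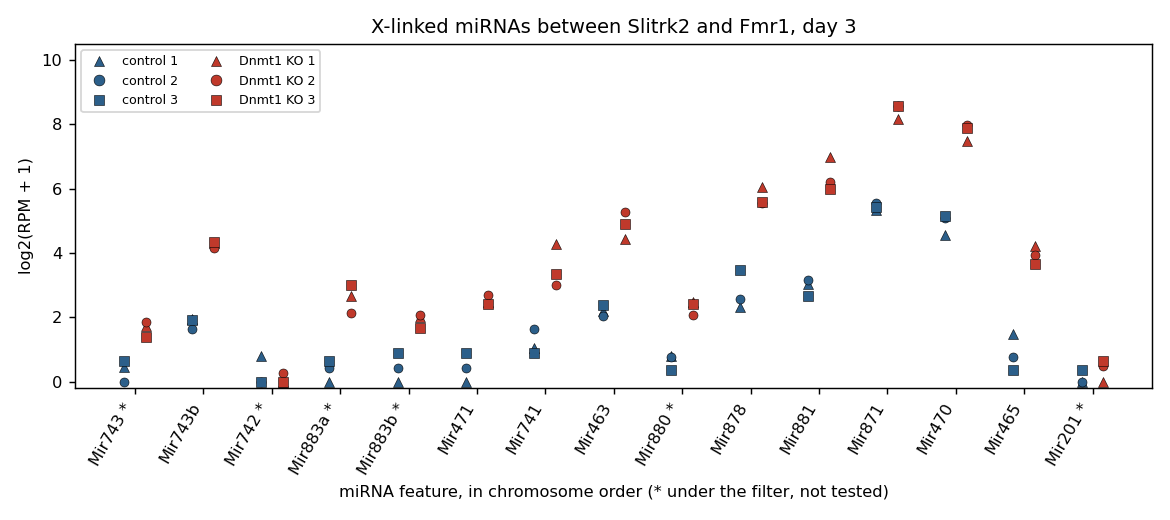
Level on the log2(RPM + 1) scale of the X-linked miRNA features with any read on day 3, in chromosome order, with 1 marker for each of 3 control (blue) and 3 Dnmt1 KO (red) libraries; an asterisk marks features under the filter. All red markers lie above all blue ones for the 9 tested features.

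On day 1 the same features did not differ in this way. The median log2 fold change of the 9 was 0.20 on day 1, 2.87 on day 3 and 3.40 on day 6. The change of the effect from day 1 to day 3 was tested in the same fit. It passed for 8 of the 9, with Mir881 at 3.32 ± 0.39 (adjusted p = 5.05e-07), Mir465 at 3.40 ± 0.48 (adjusted p = 1e-05), Mir470 at 2.78 ± 0.34 (adjusted p = 6.27e-07) and Mir871 at 2.70 ± 0.32 (adjusted p = 5.05e-07), and did not pass for Mir471 (1.08 ± 0.61, adjusted p = 0.356). In the R1-suffixed libraries of the same days, grouped by title against their genotype tags, the changes of Mir881 (0.71 ± 0.80, adjusted p = 0.742) and Mir465 (1.65 ± 1.19, adjusted p = 0.553) did not pass. The shallowest of these libraries, control replicate 3 of day 1, held 278508 reads, a total that may overstate its depth, since 96.4% of its nonzero counts were even. Over all features tested, 183 (7.09%) changed their effect from day 1 to day 3, 94 of them upward (3.64%) and 89 downward (3.45%). With library totals as the only scaling the split was 71 upward of 212. From day 3 to day 6 none of the 9 passed; Mir470 came closest, at 0.90 ± 0.34 (adjusted p = 0.112). The changes from day 1 and to day 6 use the same day 3 libraries.

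The miRNAs of the imprinted region between *Dlk1* and *Dio3* on chromosome 12 were raised to a lesser extent on day 3. They lie in and around transcripts that are made from the maternal chromosome (*Meg3*, *Rian* and *Mirg*), with 1 group antisense to the paternally expressed *Rtl1*. Of 57 miRNA features in the table, 46 were tested, and 22 were higher and none lower in Dnmt1 KO. Over all tested miRNA features 23.0% were called higher. The median log2 fold change of the 46 was 0.70, against 0.24 over all tested miRNA features. Of the 46, 45 were above 0, and by that median most miRNA features were above 0 as well. Called members were 3 of 6 tested near *Meg3*, 2 of 5 inside *Rtl1*, 2 of 2 inside *Rian* and 15 of 33 after *Rian*. Summed over all 57 features, Dnmt1 KO replicate 1 stood above the others (15738 against 12239 and 12042 RPM, and 7822 to 8512 RPM in control). Without this library 13 of the 46 were called and their median was 0.73. The fibroblast miRNAs described below had the same highest library and a like size of effect (summed 46859, 36820 and 36133 RPM in Dnmt1 KO, 24205 to 24775 RPM in control, median 0.64). In the control libraries alone 31 of the 46 would have passed the filter, 19 of the 22 called among them.

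Mir127, which lies antisense to *Rtl1* (chromosome 12, 110831042 to 110831138), was the most abundant. It held 6213, 4957 and 4895 RPM in Dnmt1 KO and 3204, 3596 and 3234 RPM in control (0.69 ± 0.18, adjusted p = 0.0147), a call that was lost without Dnmt1 KO replicate 1. Mir541 (chromosome 12, 110980619 to 110980708) held 1286, 1308 and 1216 RPM against 822, 767 and 729 RPM (0.74 ± 0.13, adjusted p = 0.000143). Its Dnmt1 KO libraries lay close together, replicate 1 included. Mir410 held 1155, 770 and 722 RPM against 424, 483 and 459 RPM (0.94 ± 0.16, adjusted p = 0.000127).

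Mir341, inside *Rian* (chromosome 12, 110849710 to 110849805), had the smallest adjusted p of the region, 6.31e-06, with 136, 118 and 115 RPM against 58.1, 68.9 and 67.8 RPM (0.93 ± 0.13). Mir494 had the largest log2 fold change, 1.22 ± 0.28 (adjusted p = 0.00444), at 12.2, 12 and 10.3 RPM against 6.1, 3.48 and 3.92 RPM. No Dnmt1 KO library of these miRNAs overlapped the controls. Further called members were Mir411, Mir136, Mir300, Mir381, Mir337, Mir540, Mir379, Mir370, Mir377, Mir369, Mir329, Mir134, Mir487b, Mir673, Mir758, AC121784.3 and AC121784.4. Of the abundant members, Mir434 did not pass, at 1376, 1221 and 1131 RPM against 727, 884 and 791 RPM (0.65 ± 0.21, adjusted p = 0.0582).

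The genes that host these miRNAs were called too, but mostly through the same reads. *Rtl1* (0.69 ± 0.14, adjusted p = 0.000866) and *Mirg* (0.82 ± 0.12, adjusted p = 1.36e-05) took nearly all of their reads from miRNA features. In *Rian* (0.63 ± 0.12, adjusted p = 0.000563) the miRNA features held 35.2% of the reads, and the rest came to 205 RPM in Dnmt1 KO and 151 RPM in control (means, n = 3). *Meg3* held 3.81, 3.2 and 2.71 RPM against 1.79, 2.44 and 3.64 RPM (0.26 ± 0.33, adjusted p = 0.738). None of the 6 tested snoRNAs of *Rian* passed (median 0.35).

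On day 6 the effect on this region was far larger. The median log2 fold change of the 46 tested miRNAs was 0.08 on day 1, 0.70 on day 3 and 3.18 on day 6. From day 1 to day 3 the effect rose for 10 of them, and from day 3 to day 6 for 44. Mir381 rose by a further 3.75 ± 0.23 (adjusted p = 6.43e-16), Mir341 by 3.15 ± 0.19 and Mir541 by 3.01 ± 0.18 (both with the same adjusted p), and the host *Mirg* by 2.79 ± 0.17 (adjusted p = 1.05e-15). Over all features tested, the effect changed from day 3 to day 6 in 200 (7.75%), with 124 (4.80%) rising and 76 (2.94%) falling. The split of rises and falls depended on the scaling: 187 of 235 rose with library totals, 106 of 261 with median-ratio size factors, and 88 of 230 with a filter on the day 3 mean. The median change of all features was 0.14 in the fit used here, 0.25 with library totals and 0.02 with median-ratio size factors.

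**Figure D3:**
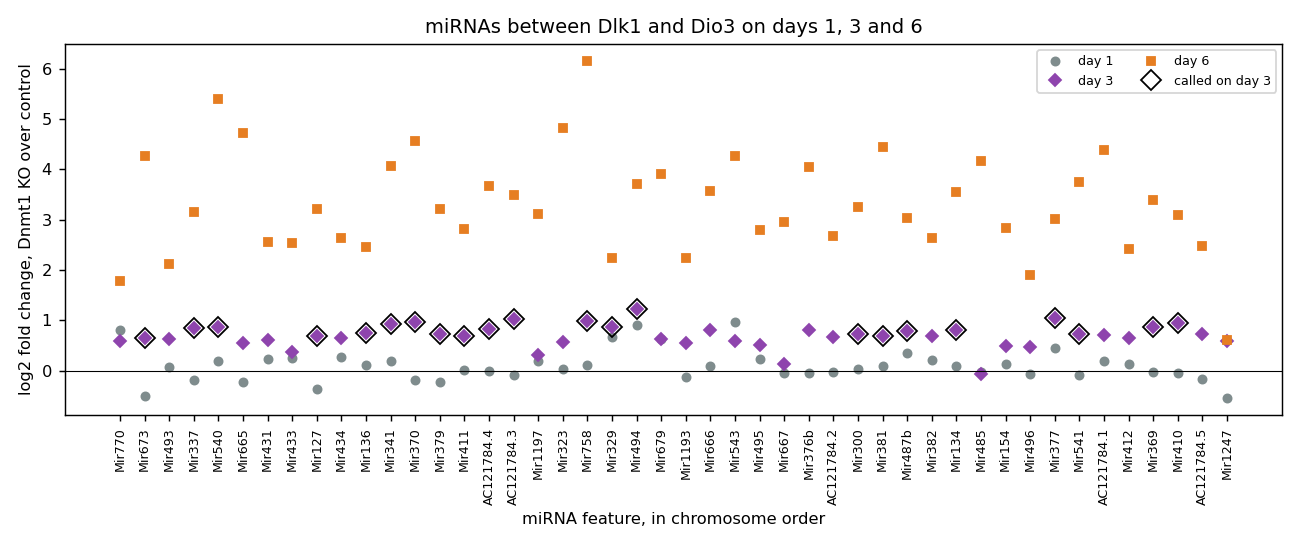
Log2 fold change (Dnmt1 KO over control) of the 46 tested Dlk1-Dio3 miRNA features on days 1 (grey), 3 (purple diamonds; framed where called) and 6 (orange squares), in chromosome order. Day 3 values lie between those of day 1, around a median of 0.08, and those of day 6, around 3.18, for most features.

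The imprinted *Sfmbt2* miRNAs are a large cluster of repeated hairpins in an intron that is expressed from the paternal chromosome. Their summed level was 785, 698 and 709 RPM in Dnmt1 KO and 551, 555 and 499 RPM in control. The *Sfmbt2* feature, with 99.1% of its reads in miRNA features, was called higher (0.46) and stayed called in all 6 fits without 1 library. Of the 119 miRNA features, 88 had no read and 8 were tested, to be read against a median of 0.24 over all tested miRNA features. All 8 had a positive log2 fold change (median 0.43) and 1 was called, Mir467c, with 285, 223 and 224 RPM against 190, 163 and 156 RPM (0.54 ± 0.15, adjusted p = 0.0246); the call was lost without Dnmt1 KO replicate 1, control replicate 2 or control replicate 3. Of 12 other tested imprinted genes and miRNAs, the *H19* feature, a maternally expressed non-coding RNA, was called at low levels of 3.81, 6.6 and 4.6 RPM against 2.15, 1.39 and 0.56 RPM (1.37 ± 0.39, adjusted p = 0.0257). It lost the call without Dnmt1 KO replicate 2, control replicate 2 or control replicate 3.

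Of the 6 tested miRNAs listed for fibroblasts, 5 were called higher in Dnmt1 KO, and all 6 had Dnmt1 KO libraries above the controls (median 0.64). Over all tested miRNA features 23.0% were called higher and the median was 0.24. Over all tested features 12.9% had every Dnmt1 KO library above all controls. Mir214 did not pass, at 135, 185 and 175 RPM against 83.2, 130 and 118 RPM (0.61 ± 0.23, adjusted p = 0.124). The summed level of the 6 was 46859, 36820 and 36133 RPM in Dnmt1 KO and 24476, 24205 and 24775 RPM in control, so replicate 1 was again the highest. Without that library 4 were called, and 3 without control replicate 1 or with the R1-suffixed libraries. On day 1 their median was 0.01 and on day 6 it was 0.49.

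Mir21, which is abundant in many cell types, held 26852, 18820 and 18567 RPM against 12481, 12310 and 12996 RPM (0.76 ± 0.11, adjusted p = 3.91e-06). Mir143, typical of mesenchymal and smooth muscle cells, held 17554, 15788 and 15186 RPM against 10524, 10311 and 10122 RPM (0.67 ± 0.10, adjusted p = 2.08e-05). Neither overlapped its controls in any library, and both were called in all 6 fits without 1 library. Mir145, from the same transcript as Mir143, held 109, 125 and 119 RPM against 73.5, 84.6 and 75.6 RPM (0.61 ± 0.16, adjusted p = 0.0109). Mir10b rose by 0.59 ± 0.15 (adjusted p = 0.00865) and Mir199a-2, whose mature sequences Mir199a-1 shares, by 0.88 ± 0.27 (adjusted p = 0.0404). Mir145 lost its call without control replicate 1, and Mir199a-2 stayed called in 1 of the 6 fits without 1 library. In such libraries a changed share of a cell type, feeder cells included, cannot be told apart from a changed level per cell. Of the 5 blood and endothelial miRNA features, 3 were tested and none was called. All 5 together summed to 5790, 2979 and 3018 RPM in Dnmt1 KO and 2681 to 2978 RPM in control, so they moved with Dnmt1 KO replicate 1 alone. The part of either cell type in the other results, those of the Dlk1-Dio3 region included, was not tested.

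**Figure D4:**
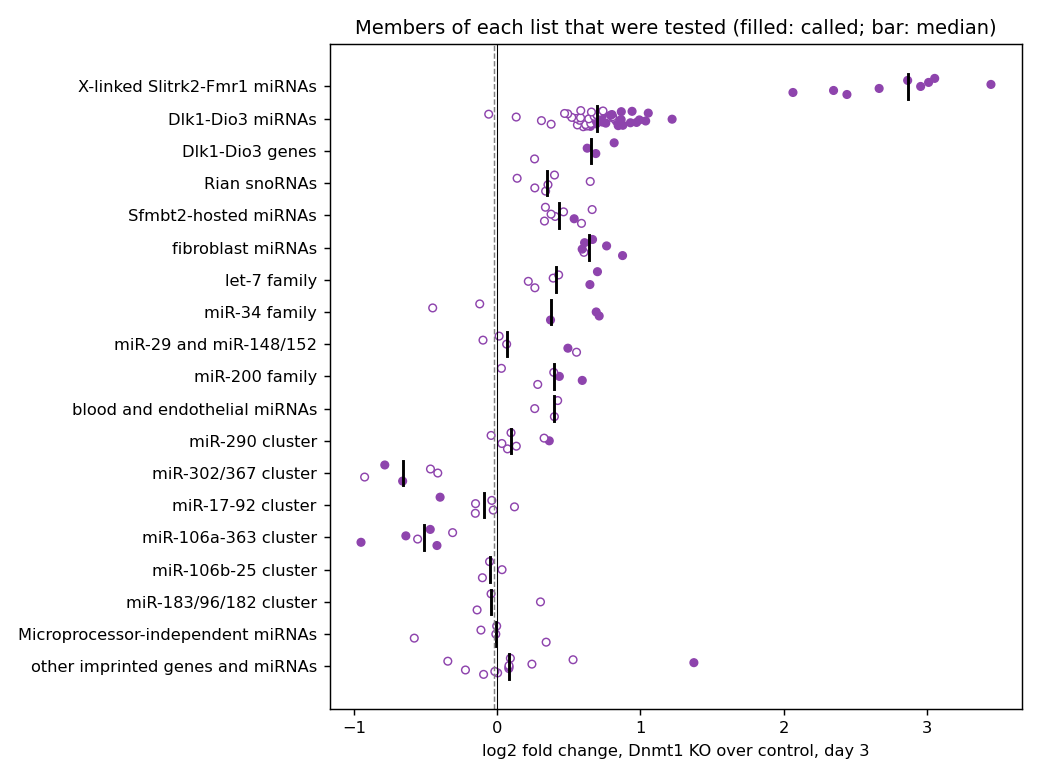
Log2 fold change (Dnmt1 KO over control, day 3) of the tested members of each group of features; filled circles were called, bars mark the medians and the dashed line the median of all features (−0.02). The X-linked cluster stands far to the right, and the miR-302 and miR-106a-363 clusters lie to the left with medians of −0.66 and −0.51.

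Next come families with known roles in differentiation and stress, to be read against the 23.0% of all tested miRNA features that were higher and their median of 0.24. In the group of the miR-34 family, targets of p53, and the related miR-449, 3 of 5 tested were called. Mir34c held 2800, 2272 and 2281 RPM against 1525, 1511 and 1492 RPM (0.71 ± 0.10, adjusted p = 2.92e-06), and Mir34b, from the same transcript, held 131, 116 and 97.2 RPM against 76.0, 65.8 and 72.0 RPM (0.69 ± 0.15, adjusted p = 0.00187). Mir34a, made from another locus, was near the threshold (0.37 ± 0.12, adjusted p = 0.0498) and was not called when any 1 library of day 3 was left out. The related Mir449a (−0.12) and Mir449c (−0.45) had negative values and did not pass. Of 6 tested let-7 features, the family that rises as cells differentiate, Mir98 (142, 134 and 132 RPM against 87.8, 90.5 and 75.9 RPM, 0.70 ± 0.18, adjusted p = 0.0111) and Mirlet7i (1616, 1258 and 1260 RPM against 891, 861 and 904 RPM, 0.65 ± 0.20, adjusted p = 0.0498) were called, and all 6 had positive values (median 0.41); this share is near that of all miRNA features. Mirlet7i lost its call without Dnmt1 KO replicate 1 or any 1 control, and Mir98 without control replicate 3. Of the miR-29, miR-148 and miR-152 families, which have DNA methyltransferases among their known targets, 1 of 5 tested was called, Mir29a, with 863, 791 and 800 RPM against 554, 626 and 587 RPM (0.49 ± 0.10, adjusted p = 0.000887). The most abundant of them, Mir148a, differed by 0.07 ± 0.11 (adjusted p = 0.802).

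Of the miR-200 family, which marks epithelial cells, Mir200b (0.43 ± 0.10, adjusted p = 0.0035) and Mir200a (0.59 ± 0.15, adjusted p = 0.0102) were called of 5 tested, the latter not without Dnmt1 KO replicate 1 (0.39) or control replicate 2. Mir200b held 2261, 2316 and 1964 RPM against 1818, 1539 and 1552 RPM, so the groups lay close to each other, and on day 6 it was lower in Dnmt1 KO (−0.36, adjusted p = 0.00479; change from day 3 −0.80 ± 0.14, adjusted p = 5.93e-05).

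Of the clusters known for ESCs, miR-290 was abundant and miR-302 was not (summed means of 131217 and 457 RPM in Dnmt1 KO). Of the 7 tested miRNAs of the miR-290 cluster, Mir291b was called higher (0.36 ± 0.10, adjusted p = 0.0278, lost without Dnmt1 KO replicate 1, control replicate 1 or control replicate 2), while the most abundant, Mir295, held 70268, 70949 and 70703 RPM against 68127, 68040 and 64834 RPM (0.10 ± 0.08, adjusted p = 0.561). For decreases, the shares to compare are 4.47% of tested miRNA features called lower and 13.3% of all tested features with every Dnmt1 KO library below all controls. In the miR-302 cluster, which includes miR-367, all 5 members had Dnmt1 KO libraries below the controls (median −0.66) and Mir302b and Mir367 were called. This count depended on the settings: 5 were called with voom, a replicate block or miRNA features only, and 0 without the filter or with the R1-suffixed libraries (median −0.39 there). Mir302b held 63.9, 76.6 and 62.0 RPM against 110, 120 and 96.1 RPM (−0.66 ± 0.15, adjusted p = 0.00434). Mir367 held 19, 8.60 and 12.7 RPM against 24.7, 21.6 and 23.2 RPM (−0.79 ± 0.24, adjusted p = 0.0409) and stayed called in 1 of the 6 fits without 1 library (−0.49 without Dnmt1 KO replicate 2). The effect fell further from day 3 to day 6, by 1.41 ± 0.22 for Mir302b (adjusted p = 6.33e-06), by 1.44 for Mir302a (adjusted p = 6.84e-06) and by 1.40 for *Larp7*, the gene that hosts the cluster (adjusted p = 4.77e-07).

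The miR-106a-363 cluster on the X chromosome, a paralogue of the miR-17-92 cluster that promotes proliferation, was lower in Dnmt1 KO. Over all tested miRNA features 4.47% were called lower, and 13.3% of all tested features had every Dnmt1 KO library below all controls. In this cluster all 6 members had Dnmt1 KO libraries below the controls (median −0.51), and 4 were called. Without Dnmt1 KO replicate 1 there were 4 as well, and without control replicate 1 there were 2, Mir92-2 and Mir20b. Mir92-2 (chromosome X, 50095015 to 50095105) had the largest decrease of any called miRNA, with 9779, 12482 and 13277 RPM in Dnmt1 KO and 25048, 25264 and 19283 RPM in control (−0.95 ± 0.12, adjusted p = 3.65e-07). Mir20b (chromosome X, 50095290 to 50095369) held 824, 770 and 806 RPM against 1393, 1180 and 1223 RPM (−0.64 ± 0.10, adjusted p = 1.64e-05). The decreases of Mir106a (−0.47 ± 0.12, adjusted p = 0.0105) and Mir363 (−0.42 ± 0.10, adjusted p = 0.00446) were smaller; Mir106a stayed called in 2 of the 6 fits without 1 library and Mir363 in 5. Those of Mir18b (−0.31 ± 0.13, adjusted p = 0.183) and Mir19b-2 (−0.56 ± 0.24, adjusted p = 0.192) did not pass.

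Since miR-92a-3p is the same sequence in Mir92-2 and Mir92-1, of the miR-17-92 cluster, the split of its reads between both features is uncertain. Mir92-1 held 25434, 31907 and 33419 RPM against 39611, 43449 and 37626 RPM (−0.40 ± 0.09, adjusted p = 0.00249) and lost its call without Dnmt1 KO replicate 1 (−0.25). It was the only called member of the 6 of miR-17-92 (median −0.09), and none of the 3 of miR-106b-25 passed (median −0.05). By seed, 4 of the 7 tested features with AUUGCAC (Mir92-1, Mir92-2, Mir363 and Mir367) and 2 of the 6 with AAAGUGC (Mir20b and Mir106a) were called lower. None of either seed was called higher, and over all tested miRNA features 4.47% were called lower. Both seeds were named because called features share them. Mir92-2, Mir363, Mir20b and Mir106a also lie in 1 cluster, so these counts describe the called features only.

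Outside all of these groups, 27 further miRNA features were called, 21 higher and 6 lower; those named here were picked after their values were seen, except Mir215, Mir193 and Mir181a-2, which were among the 16 largest rises. Mir22, which is widely expressed, was the most abundant, with 51376, 27858 and 26241 RPM against 20599, 20718 and 19879 RPM (0.73 ± 0.14, adjusted p = 0.000284). Its log2 fold change was 0.45 without Dnmt1 KO replicate 1. All 4 tested features of the miR-181 seed were higher. Mir181a-2 held 30.4, 42.4 and 49.8 RPM against 10.0, 17.7 and 15.4 RPM (1.47 ± 0.26, adjusted p = 0.000143) and Mir181c, the most abundant, held 9049, 6783 and 7108 RPM against 5867, 5345 and 5673 RPM (0.45 ± 0.10, adjusted p = 0.00407), while Mir181a-1, which shares miR-181a-5p with Mir181a-2, and Mir181d lost their calls without Dnmt1 KO replicate 1.

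Mir193 held 104, 56.4 and 51.2 RPM against 29.0, 23.0 and 29.4 RPM (1.3 ± 0.23, adjusted p = 0.000184). Mir215, known as another target of p53, held 35.8, 15.0 and 18.4 RPM against 5.74, 8.35 and 6.72 RPM (1.53 ± 0.37, adjusted p = 0.00655) and lost its call without Dnmt1 KO replicate 1, as did *Iars2*, the gene in which it lies (1.34 ± 0.32, 81.2% of its reads in miRNA features). In both, replicate 1 was the highest library. Some of the higher features were neighbours on 1 transcript. On chromosome 8 these were Mir27a (0.53 ± 0.09, adjusted p = 3.74e-05), Mir24-2 (0.62 ± 0.12, adjusted p = 0.000494) and Mir23a (0.41 ± 0.12, adjusted p = 0.0302, called in 2 of the 6 fits without 1 library). On the X chromosome they were Mir322 (0.68 ± 0.12, adjusted p = 0.000122) and Mir351 (0.55 ± 0.12, adjusted p = 0.00175). Only called features are listed here, so whether whole transcripts moved alike was not tested.

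Of the lower miRNAs outside the groups, Mir130b held 2285, 1871 and 1838 RPM against 2653, 2590 and 2609 RPM (−0.38 ± 0.10, adjusted p = 0.0097), and Mir210, known for its induction under low oxygen, held 247, 221 and 255 RPM against 329, 393 and 388 RPM (−0.60 ± 0.16, adjusted p = 0.014). The other 4 were Mir128-1, Mir582, AL844840.2 and AC113316.1. None of the 6 was called in all 6 fits without 1 library. The 3 tested miRNAs of the miR-183 cluster, which includes Mir182, the most abundant feature of these libraries, did not pass (median −0.04), nor did the 5 of the Microprocessor-independent group (median −0.01).

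**Figure D5:**
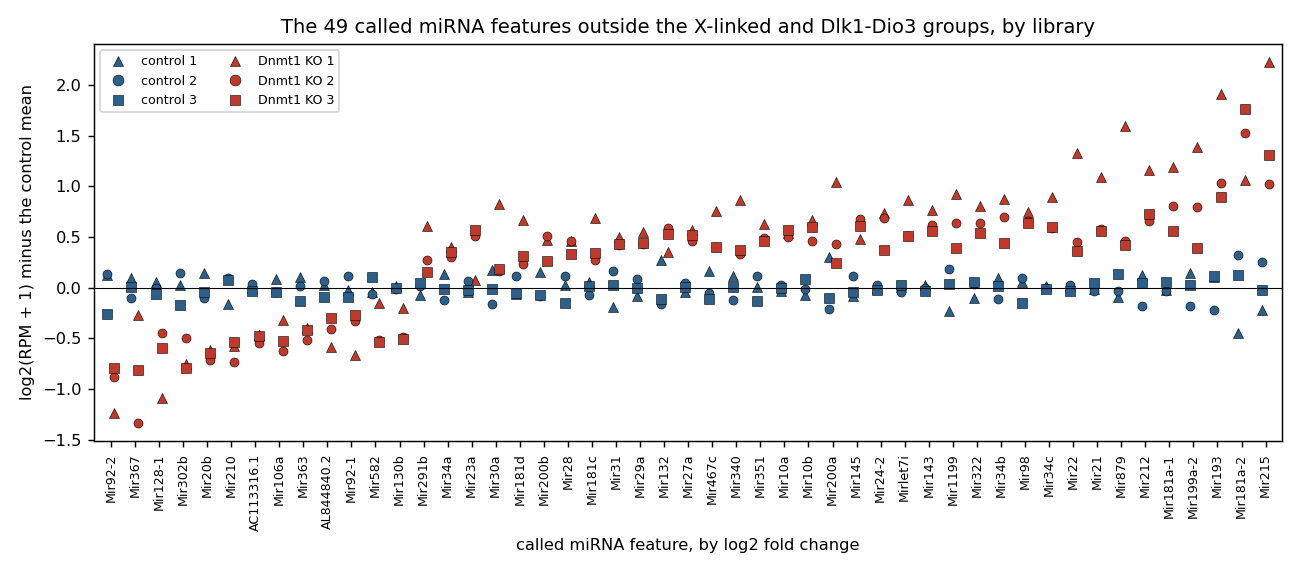
Level of the 49 called miRNA features outside the X-linked and Dlk1-Dio3 clusters (36 higher, 13 lower), ordered by log2 fold change, as log2(RPM + 1) minus the control mean, with 1 marker per library (control blue, Dnmt1 KO red; triangles mark replicate 1). The red triangles often lie above the other red markers among the higher features.

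Several features that were lower on day 3 had been higher on day 1. AL807771.1, annotated as rRNA, held 25.9, 25.8 and 42.2 RPM in Dnmt1 KO and 86.4, 98.8 and 85.7 RPM in control on day 3 (−1.51 ± 0.29, adjusted p = 0.000445), the largest decrease of the day, after a log2 fold change of 1.17 on day 1 (adjusted p = 0.0111). AC113316.1, annotated as a miRNA inside *Cdk8*, a kinase gene of the Mediator complex, held 802, 758 and 796 RPM against 1110, 1135 and 1082 RPM (−0.48 ± 0.13, adjusted p = 0.0224) after 1.04 on day 1 (adjusted p = 2.68e-06). *Cdk8* itself had 72.1% of its reads in that miRNA feature. The day 3 calls of both were lost when any 1 library of day 3 was left out, whereas AL807771.1 was called in all 6 such fits. The effect fell from day 1 to day 3 by 1.52 ± 0.19 for AC113316.1 (adjusted p = 6.27e-07), by 1.24 for *Cdk8* (adjusted p = 7.11e-06) and by 1.14 ± 0.17 for AL844840.2 (adjusted p = 1.45e-05). A U5 snRNA feature on chromosome 4 (116875133 to 116875248) fell alike in its effect, by 1.14 ± 0.17 (adjusted p = 1.46e-05), but did not differ beyond the test on day 3 (540, 709 and 674 RPM against 760, 638 and 773 RPM, adjusted p = 0.531). Among all 161 called features, 2 had been called with the same sign on day 1 and 6 with the opposite sign; on day 6, 107 were called with the same sign and 4 with the opposite.

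Called features that are not miRNAs numbered 81. In 25 of them more than 50% of the reads lay in miRNA features, and 51 overlapped no miRNA feature (28 higher, 23 lower; 40 of them protein_coding). Reads of miRNA length from a gene body can be fragments of its transcript. *Npffr1*, a neuropeptide receptor gene, held 19.8, 10.6 and 14.6 RPM against 6.45, 4.18 and 4.48 RPM (1.40 ± 0.24, adjusted p = 0.000143). BX470216.1, annotated as misc_RNA inside *Ccdc30* that was picked after its values were seen, held 1191, 1299 and 1226 RPM against 686, 672 and 596 RPM (0.95 ± 0.10, adjusted p = 1.34e-08). Both were called in all 6 fits without 1 library.

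Of the 12 largest decreases, 11 were features other than miRNAs. *Prosapip1* held 164, 161 and 153 RPM against 330, 424 and 367.2 RPM (−1.20 ± 0.17, adjusted p = 6.86e-06) and was called in all 6 fits without 1 library. The histone gene *Hist1h4f* (5.33, 10.2 and 7.58 RPM against 17.2, 17.4 and 15.4 RPM, −1.04 ± 0.22, adjusted p = 0.00209) lost its call without Dnmt1 KO replicate 1. So did *Hist1h2bk* (−1.13 ± 0.27), *Prrg1* (−1.24 ± 0.33) and Gm13589 (−1.21 ± 0.28, and −0.76 without that library), each also without 1 of the controls (replicate 1 for *Hist1h2bk*, replicate 2 for *Prrg1* and Gm13589). Like *Hist1h4f*, *Hist1h2bk* and *Prrg1*, the remaining 5 rested on few reads. *Trh*, the gene of thyrotropin-releasing hormone, *Gja1*, which encodes a gap junction protein, and Gm12868 stayed called in 1 of the 6 fits. *Fgf4*, a growth factor gene active in ESCs, stayed called in 2, and *Spry4*, an inhibitor of growth factor signalling, in none. *Fgf4* held 1.52, 10.2 and 7.85 RPM against 14.7, 12.9 and 12 RPM (−1.15 ± 0.36, adjusted p = 0.0492; −0.46 without Dnmt1 KO replicate 1), and *Spry4* held 4.57, 5.20 and 4.06 RPM against 10.8, 9.40 and 10.1 RPM (−0.96 ± 0.30, adjusted p = 0.0473).

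The make-up of the libraries by feature class was close between genotypes. miRNA features took 61.5, 56.4 and 56.9% of the reads in Dnmt1 KO and 56.1, 56.7 and 56.1% in control (difference 1.96 percentage points, exact permutation p = 0.2, adjusted p = 0.36 over 9 classes), and without Dnmt1 KO replicate 1 the difference was 0.349 points. The protein_coding class took 37.7, 35.7 and 35.0% against 33.6, 33.5 and 34.1% (2.37 points), but −0.837 points remained without features that overlap a miRNA feature. Mitochondrial rRNA (0.0635 points) and tRNA (0.0627 points) were higher in all 3 Dnmt1 KO libraries and snRNA was lower (−0.0824 points). For these 4 classes the exact permutation p was 0.1, the smallest that 3 against 3 allow (adjusted p = 0.225).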

How the data were processed

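Total RNA was made into Illumina small RNA libraries. The authors trimmed the reads (Trim Galore 0.3.5), kept those of miRNA length, mapped them to NCBIM37 with Bowtie2 2.2.9 and counted them per feature in SeqMonk. The deposited values are RPKM. Use of strand in the counts is not given in the sources used here. The authors called miRNAs with DESeq2 and SeqMonk's intensity filter.

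RPKM times the span of a feature (in kilobases) gave RPM, and reads were read back from the smallest step of each library. Reads in a miRNA inside another feature count for both, so class shares add up to more than 100%. Features needed 10 RPM in 3 of the 36 time course libraries. log2(RPM + 1) was fitted, after an own implementation of TMM scaling (30% of log ratios, 5% of abundances trimmed), with limma 3.58.1 in R 4.3.3, 1 mean per day and genotype. The 1 RPM added understates folds of rare features. Classes and *Dnmt1* had two-sided exact permutation tests. At the shallowest day 3 library 10 RPM is about 13 reads, and the precision of each value is limited by the 3 replicates.

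Named features were the 16 largest rises and 12 largest decreases among called features without overlap, the 4 smallest adjusted p in each direction of each change of effect, the members of the gene lists, and *Dnmt1*. Groups followed titles, which the genotype tags of the R1-suffixed libraries contradict. Members and lists were chosen with earlier results of these data known. Alternatives were other scalings, filters, pseudocounts and fits, voom, a replicate block, the R1-suffixed libraries and leaving out each library. The script was tested on simulated data.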

Additional observations from a re-analysis of the deposited data

Results flagged for a closer look

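The effect (log2 fold change, Dnmt1 KO over control) differed between day 3 and a neighbouring day for 16 features named by rule. Each passed a limma test of the difference itself (adjusted p under 0.05 over 2582 features, 3 libraries per genotype and day). From day 1 to day 3 the effect rose by 3.32 for Mir881, 2.70 for Mir871, 2.78 for Mir470 and 3.40 for Mir465, all of the X-linked cluster. Over the same interval it changed by −1.52 for AC113316.1, −1.24 for its host *Cdk8*, −1.14 for AL844840.2 and −1.14 for the U5 feature on chromosome 4. From day 3 to day 6 it rose by 3.15 for Mir341, 3.75 for Mir381, 3.01 for Mir541 and 2.79 for *Mirg*, all between *Dlk1* and *Dio3*, and changed by −1.40 for *Larp7*, −0.92 for Mir20b, −1.41 for Mir302b and −1.44 for Mir302a. *Cdk8*, *Mirg* and *Larp7* take most of their reads from the miRNA features inside them, so they repeat the values of those miRNAs. The groups of 3 libraries were too small for a test of single outlying libraries.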

How the results depend on the processing

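No called feature reversed under another scaling, filter, pseudocount or fit of the same libraries, whereas the counts depended on the settings. Without a filter, 71 features were called on day 3 (40 miRNA features), 61 in the change from day 1 and 118 in the change to day 6; with voom, 272 on day 3 and 315 in the change to day 6; with the R1-suffixed libraries, 90 (50 miRNA features), 99 and 92, and 5 of the 158 called features tested there had the opposite sign, *Spry4* among them (0.33). Of the features named by size, Mir465, Mir215, Mir193, Mir494 (0.43), *Npffr1*, *Iars2*, *Prrg1*, *Fgf4*, *Gja1*, Gm12868, *Hist1h2bk* (−0.17) and *Hist1h4f* (−0.03) did not pass there. The R1 groups follow titles and source names, which their genotype tags contradict, so these values hold only if the titles are right. The R1-suffixed libraries of day 3 also held fewer reads (541738 to 1593620) than those of the same names. Of the Dlk1-Dio3 miRNAs, 13 were called with those libraries, 14 without a filter, 15 with 0.5 RPM added and 31 with voom. Tested on miRNA features only, the changes gave 67 (day 1 to day 3) and 112 calls (day 3 to day 6). Leaving out each day 3 library gave 96 to 169 calls on day 3, 56 to 76 miRNA calls, and 106 to 233 and 168 to 291 calls in the changes, the 106 without Dnmt1 KO replicate 1. The cause of these shifts was not tested. Of the 28 features named for day 3, 12 were called in every setting in which they were tested. Among these 12, Mir471 was tested in 14 and Mir741 in 15 of the 16 alternatives.

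The median of the X-linked miRNAs was 2.33 without a filter, 1.94 with 5 RPM added, and 2.70 to 2.91 without 1 library; that of the fibroblast miRNAs was 0.55 with the R1-suffixed libraries and 0.63 to 0.71 without 1 library. The protein_coding share differed by −0.837 points without features that overlap a miRNA feature, and the lincRNA share by 0.0557 points without the 5 most abundant features. Leaving out 1 library, the lincRNA difference ran from −0.347 to 0.224 points, processed_transcript from −0.0507 to 1.09, misc_RNA from −0.0420 to 0.0535, and the *Dnmt1* feature from −8.16 to 3.05 RPM (0.664 RPM with the R1-suffixed libraries); the last alternatives were chosen after seeing the data, as were the list counts without Dnmt1 KO replicate 1. Depth limits features near 10 RPM most.

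Replicate numbers did not pair the samples. Deviations from the group means correlated at −0.01, 0.03 and −0.04 between same-numbered libraries, and only replicate 2 correlated best with its own number. With the number as a replicate block, 171 features were called on day 3 (147 of the 161 and 88 miRNA features), and 180 and 202 in the changes. The block cannot move a fold change in this balanced design, so the medians of the Dlk1-Dio3 (0.70), X-linked (2.87) and fibroblast miRNAs (0.64) are fixed. It changed list counts in 4 lists: miR-302 from 2 to 5, miR-290 from 1 to 2, fibroblast from 5 to 6, and blood and endothelial from 0 to 1.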
